A study of Mus musculus with 6 samples.

Results

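Ptprn, Vgf and Uchl1 are genes that neurons and endocrine cells share, and their signals were followed here in NIT-1 cells with and without cadmium. They are 3 of the 18972 genes with a single name on the array, and each was read by 1 probe set. They were picked because their cadmium and control arrays had been seen to differ, so their differences are given as descriptions and no test is attached to them. NIT-1 is a line of mouse pancreatic beta cells, made from an insulinoma of a mouse whose insulin promoter drives a viral oncogene. Both groups were NIT-1 cells kept in wells for 24 h and then held for a further 24 h in medium. The cadmium group had cadmium sulphate at 4 µmol/L in that medium and the control group had 0 µmol/L. Each group held 3 arrays, labelled as biological replicates of 1 cell line. Passage and culture day are not part of the labels, and p-values therefore cover only how far these 6 arrays vary, which may be technical.

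Endocrine cells store peptide hormones in dense-core secretory granules and release them when calcium enters. Ptprn encodes a transmembrane protein of the granule membrane with the fold of a receptor tyrosine phosphatase but without its usual activity, and it is an autoantigen of autoimmune diabetes. Vgf encodes a granule precursor that is cut at paired basic residues into several secreted peptides, and in neurons its transcription responds to growth factors and cyclic AMP. Uchl1 encodes a deubiquitinating enzyme, very abundant in neurons and endocrine cells, that helps keep free ubiquitin available.

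The sequences before the transcription starts are shown because stress-response elements can be looked for in them. RefSeq windows of assembly GRCm38.p6, 250 bases before to 50 after a start, were held for 2 of the members, Ptprn and Uchl1, and Vgf had no entry. Ptprn has a pair of starts 437 bases apart, at chr1:75264159-75264458 and chr1:75263722-75264021, both on the minus strand of chromosome 1. The Uchl1 window is chr5:66675871-66676170 on the plus strand. Capitals mark matches to a heat shock, metal, antioxidant, AP-1 or cyclic AMP response element, in the letters spelled out after the sequences.
Ptprn, upstream start: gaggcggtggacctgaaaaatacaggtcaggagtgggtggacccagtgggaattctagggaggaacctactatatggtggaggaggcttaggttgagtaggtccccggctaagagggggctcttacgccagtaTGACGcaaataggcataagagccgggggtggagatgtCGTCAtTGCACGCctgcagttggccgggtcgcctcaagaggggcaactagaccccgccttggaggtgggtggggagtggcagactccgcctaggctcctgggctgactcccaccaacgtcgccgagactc
Ptprn, downstream start: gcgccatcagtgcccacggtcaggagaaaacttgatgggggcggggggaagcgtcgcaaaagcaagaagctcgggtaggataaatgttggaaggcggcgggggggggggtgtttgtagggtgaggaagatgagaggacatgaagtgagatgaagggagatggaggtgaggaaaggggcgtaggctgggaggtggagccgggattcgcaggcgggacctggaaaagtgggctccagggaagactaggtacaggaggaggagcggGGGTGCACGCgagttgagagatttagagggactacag
Uchl1: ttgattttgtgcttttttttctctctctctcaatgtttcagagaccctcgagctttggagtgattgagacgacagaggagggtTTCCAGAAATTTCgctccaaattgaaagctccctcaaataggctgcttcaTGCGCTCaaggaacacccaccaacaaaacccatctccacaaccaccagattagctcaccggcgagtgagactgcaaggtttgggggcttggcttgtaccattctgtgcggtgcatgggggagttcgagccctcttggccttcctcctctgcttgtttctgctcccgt

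Each motif was searched on both strands, and a match describes the letters without showing that any factor binds there. The Uchl1 window holds an overlapping pair of heat shock units, each GAANNTTC or TTCNNGAA, at bases 84 to 91 and 89 to 96 of the window. Such a unit occurs in 15.1% of all 32851 RefSeq windows. Together they spell a run of 3 alternating units, TTCNNGAANNTTC, at bases 84 to 96, and that longer motif or its reverse form GAANNTTCNNGAA occurs in 0.603% of windows. The longer motif was searched after the Uchl1 sequence had been seen. Neither Ptprn window matched the heat shock unit.

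The core that a metal-responsive factor binds, TGCACNC or TGCGCNC, matched in all 3 windows of Ptprn and Uchl1, against 25.7% of all windows. In the upstream Ptprn window it lies at bases 177 to 183, close behind 2 cores of the cyclic AMP response element, TGACG, at bases 134 to 138 and 171 to 175. That short core occurs in 20.8% of windows. In the downstream Ptprn window, 2 overlapping matches of the metal core span bases 264 to 273, after the start. The full cyclic AMP response element TGACGTCA, found in 1.79% of windows, the antioxidant response element TGACNNNGC, in 12.4%, and the AP-1 site TGACTCA, in 5.2%, had no match in these 3 windows. The windows had 60.3% and 59.7% G and C for Ptprn and 50.7% for Uchl1, where the median of all windows is 52.7%.

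Signals are given on the log2 scale as deposited, and a difference is the cadmium mean minus the control mean. Signals of negative control probes gave a bound for background, the 95th percentile on each array, which ranged from 6.12 to 6.25 with a mean of 6.18. The bound is approximate, because a negative control may stand for fewer probes than a gene does. Both group means were above the mean bound in 2003 of the 18972 genes. Across all genes the median difference was 0.04, and the array medians lay between 4.13 and 4.18, each cadmium median above each control median. Limma called 2313 of the 18972 genes at a Benjamini-Hochberg adjusted p under 0.05, or 12.2%, with 1227 (6.47%) up under cadmium and 1086 (5.72%) down. Higher genes made up 53.0% of the calls as deposited, 43.4% once the arrays had been quantile normalized and 38.0% once their medians had been set equal. Leaving out control replicate 1 or 2 lowered the total to 1191 or 1142, and leaving out cadmium replicate 2 or 3 lowered it to 1151 or 1181.

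All 3 members had every cadmium array above every control array, and 22.9% of all genes did so as well. In either direction the groups were apart in 35.9% of genes. Ranked from the largest increase over all genes, the differences of Ptprn, Vgf and Uchl1 stood at places 191, 197 and 1258. Vgf was below the bound on all 6 arrays, so its difference, its place and its likeness to other profiles rest on signals not distinct from background.

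Ptprn, the granule membrane protein, read 6.49, 6.41 and 6.12 on control replicates 1, 2 and 3. With cadmium it read 7.12, 7.33 and 7.28. The means were 6.34 ± 0.20 in control and 7.24 ± 0.11 in cadmium arrays (SD, n = 3), a difference of 0.90 ± 0.11 (SE). As a ratio of signals this is 1.87-fold if the logarithm has base 2. The lowest cadmium array stood 0.63 above the highest control array, and the 9 pairs of a cadmium and a control array differed by 0.63 to 1.22. Control replicate 3 was the only array on which Ptprn lay below that array's own bound. There 94.9% of negative controls were dimmer, against 96.1% and 95.8% on the other control arrays and 97.4% to 97.9% on the cadmium arrays.

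Vgf, the peptide precursor, read 4.97, 4.78 and 4.74 on the control arrays and 5.53, 5.80 and 5.81 on the cadmium arrays. The means were 4.83 ± 0.13 and 5.71 ± 0.16 (SD, n = 3), with a difference of 0.88 ± 0.10 (SE). The closest pair of arrays from the 2 groups differed by 0.55 and the farthest by 1.07. All 6 values lay below the bound, so no fold is given for Vgf. Between 85.0% and 86.9% of negative controls were dimmer than Vgf on the control arrays and between 91.3% and 93.3% on the cadmium arrays.

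Uchl1, the ubiquitin hydrolase, read 6.81, 6.82 and 6.78 on the control arrays. It read 6.97, 7.18 and 7.17 on the cadmium arrays. The control arrays lay within a narrow range, with an SD of 0.02 around a mean of 6.81, while the cadmium mean was 7.11 ± 0.12 (n = 3 each). The difference was 0.30 ± 0.07 (SE), a ratio of 1.23, and the closest pair of arrays differed by 0.15. Uchl1 was above the bound on all 6 arrays, with 97.0% to 97.8% of negative controls dimmer.

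**Figure D1:**
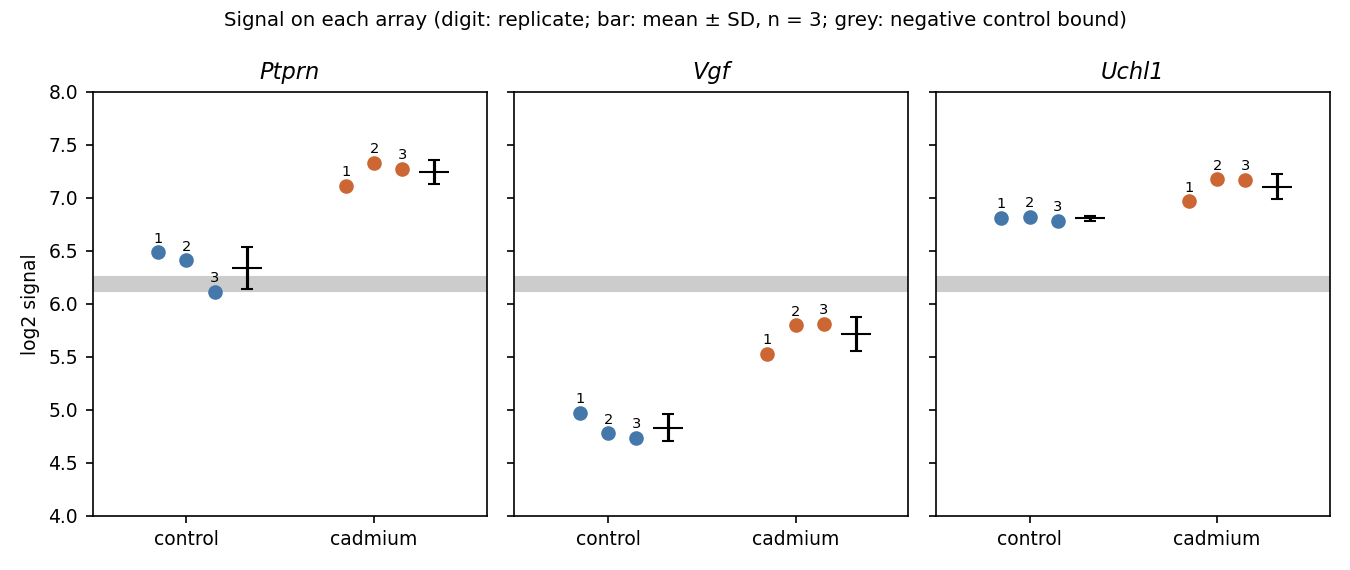
Log2 signal of Ptprn, Vgf and Uchl1 on each array, with control replicates in blue and cadmium replicates in orange, the mean and SD of each group (n = 3) as black bars, and the range of the negative control bound over the 6 arrays in grey. In each panel the cadmium points lie above the control points, Vgf stays below the grey band, and Uchl1 stays above it.

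Within each group the members shared their lowest array, and how many other genes had the same lowest arrays was not counted. Control replicate 3 was the lowest control array for all 3 genes, at deviations from the group mean of -0.22 for Ptprn, -0.09 for Vgf and -0.02 for Uchl1. Cadmium replicate 1 was the lowest cadmium array for all 3, at deviations of -0.13 for Ptprn, -0.18 for Vgf and -0.14 for Uchl1. These are the arrays to which limma gave the lowest weights over all genes, 0.549 and 0.553, against 1.23 to 1.46 for the rest, and the part of array quality in the members' values was not tested. Without both arrays the differences were 0.86 for Ptprn, 0.93 for Vgf and 0.36 for Uchl1. With each array centred they were 0.86, 0.84 and 0.26.

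Genes whose 6 values ran closest to those of each member were found by the root mean square difference between profiles, each centred on its own mean over the 6 arrays. There were 6541 candidates, genes whose brighter group mean was at or above the median, without predicted genes, small RNA genes, olfactory and vomeronasal receptors and the members. The cadmium difference weighs most in this measure. Ptprn and Vgf differed from each other by 0.08 and from Uchl1 by 0.32 and 0.30. Tubb3, a tubulin typical of neurons, and Pea15a, a small adaptor of MAP kinase signalling, were the nearest to both Ptprn and Vgf. Tubb3 differed from Ptprn by 0.05 and from Vgf by 0.04, and Pea15a by 0.06 and 0.04. Tubb3 read 5.97, 5.82 and 5.66 on control and 6.52, 6.78 and 6.74 on cadmium arrays, with the same lowest array in each group as Ptprn.

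Next to Ptprn came Dgat2, an enzyme of triglyceride synthesis, at 0.09, and the zinc exporter gene Slc30a1 and the acyltransferase gene Hhat, both at 0.10. Next to Vgf came Abhd5, a cofactor of lipid droplet lipolysis, and Hspd1, the mitochondrial chaperonin, both at 0.07, and Hhat at 0.08. Slc30a1 and Hhat had both means below the bound. Uchl1 had other neighbours by this measure, with root mean square differences of 0.02 to 0.03. They were Platr26, Smap2, which acts on small GTPases of the Arf family, Spata33, Cep41, a protein of the centrosome and cilium, and the arrestin-like Arrdc2. All of them had both means below the bound. Spata33, Cep41 and Arrdc2 did not pass (limma adjusted p = 0.0567, 0.0534 and 0.0644). Platr26 and Smap2 passed (limma adjusted p = 0.033 and 0.0492) but lost the call in 8 and 7 of 14 alternatives. These genes were picked for likeness to a member, so their p-values are not independent of that choice. The difference of Uchl1 was itself smaller, so its smaller distances do not mean a closer likeness.

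**Figure D2:**
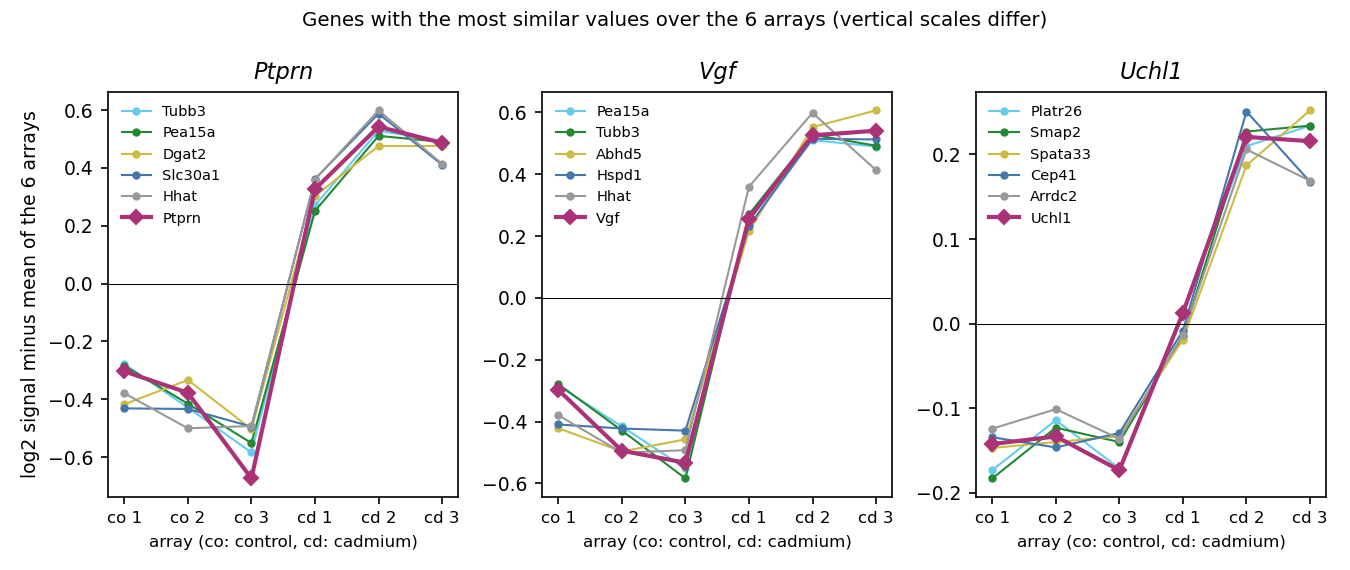
Log2 signal minus the gene's own mean over the 6 arrays, for each member (thick purple line) and the 5 genes with the smallest root mean square difference from it. Lines only link the values of a gene and imply no order of replicates. Tubb3 and Pea15a appear beside both Ptprn and Vgf, and the vertical range for Uchl1 is smaller.

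Of 29 genes listed as secretory granule proteins 17 were measured, and leaving out Ptprn and Vgf, 0 of 15 rose and 1 fell by limma, with 0 higher and 3 lower at an unadjusted p under 0.05. The share called by adjusted p was 6.67%, against 12.2% of all genes. The share of all genes at an unadjusted p under 0.05 was not counted. Unadjusted counts, here and in the lists below, therefore have no reference beside them. The median difference of the 15 was 0.05, next to 0.04 over all genes, and they ranged from -0.56 to 0.29 on the log2 scale. The gene that fell was Pam, which amidates the ends of neuropeptides, from 5.72 ± 0.07 to 5.16 ± 0.04 (n = 3 each, limma adjusted p = 0.00183), below the bound in both groups. The call for Pam held under each of 14 alternatives.

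The granins, the acidic cargo proteins among which VGF is often counted, gave low values. Chgb, encoding chromogranin B, was at 3.65 ± 0.14 without and 3.83 ± 0.08 with cadmium (limma adjusted p = 0.201). Scg2, Scg3 and Scg5, encoding secretogranins, had differences of 0.05, 0.04 and 0.09 (limma adjusted p = 0.64, 0.71 and 0.448). All 4 granin genes were below the bound on every array, whereas Ptprn was above it on 5 of 6. Resp18 is a granule protein whose domain is shared with the lumenal part of the Ptprn protein. It was at 3.38 ± 0.14 and 3.44 ± 0.08, both below the bound (limma adjusted p = 0.63).

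Of the processing machinery that would act on a Vgf precursor, few genes were measured. Cpe, the carboxypeptidase that trims cleaved peptides, was at 4.02 ± 0.17 and 4.31 ± 0.21, both below the bound (limma adjusted p = 0.177). Pcsk1n, the proSAAS inhibitor of a prohormone convertase, was above the bound on all 6 arrays, at 6.49 ± 0.11 and 6.38 ± 0.11 (limma adjusted p = 0.39). Ica1, an islet autoantigen like Ptprn that acts in granule formation, had a difference of -0.31 ± 0.09 (SE). It did not pass (limma adjusted p = 0.0612), and both its means were below the bound. Ptprn2, the closest relative of Ptprn, and Chga, Pcsk1 and Pcsk2 were not analysed here, and in all 17 of 27 relatives and partners chosen by name were measured.

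Among 26 measured precursors of neuropeptides and peptide hormones, the class of Vgf, 1 rose and 0 fell, with 4 higher and 1 lower at an unadjusted p under 0.05. By adjusted p 3.85% were called, against 12.2% of all genes, and the median difference was 0.07. Tac1, the precursor of substance P, rose from 3.34 ± 0.11 to 3.85 ± 0.19 (n = 3 each, limma adjusted p = 0.023), far below the bound. It lost the call without control replicate 2 or 3 or cadmium replicate 2 or 3, at an adjusted p of up to 0.0874. None of the 26 had a group mean above the bound. Over all genes, 2003 of 18972 had both means above it.

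Neuronal and neuroendocrine markers, the class of Uchl1, had 25 measured genes besides it, of which 6 rose and 1 fell, or 28.0% called against 12.2% of all genes, and the median difference was 0.07. Tubb3 rose from 5.82 ± 0.15 to 6.68 ± 0.14, at least 1.40-fold (limma adjusted p = 0.00261). Elavl3, a neuronal RNA-binding protein, rose from 4.54 ± 0.12 to 5.33 ± 0.07 (limma adjusted p = 0.00162). Cacna1a, the pore of a presynaptic calcium channel, rose from 5.64 ± 0.07 to 6.03 ± 0.04 (limma adjusted p = 0.00621). Elavl3 and Cacna1a had both means below the bound, and these 3 calls held in all 14 alternatives.

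Mapk8ip1, a scaffold of JNK signalling, Dcx, a microtubule protein of young neurons, and Snap25, a membrane fusion protein, rose by 0.27, 0.38 and 0.23 (limma adjusted p = 0.0262, 0.0221 and 0.031). The first and second of these lost their calls without control replicate 1 or 2 or cadmium replicate 2 or 3, which left 3 genes higher in each of those fits, and Snap25 lost its call without any 1 of the 6 arrays. The neuronal enolase gene Eno2, often used beside Uchl1 as a neuroendocrine marker, went the other way, from 6.05 ± 0.01 to 5.65 ± 0.09 (limma adjusted p = 0.00728). Syp, synaptophysin, and the endocrine transcription factor gene Insm1 had differences of 0.14 and 0.16 and did not pass (limma adjusted p = 0.186 and 0.151). Rest, the repressor of neuronal genes, was at 4.40 ± 0.08 and 4.30 ± 0.04 (limma adjusted p = 0.333). Both means were below the bound for Rest, and also for Eno2, Syp, Insm1, Dcx and Snap25.

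**Figure D3:**
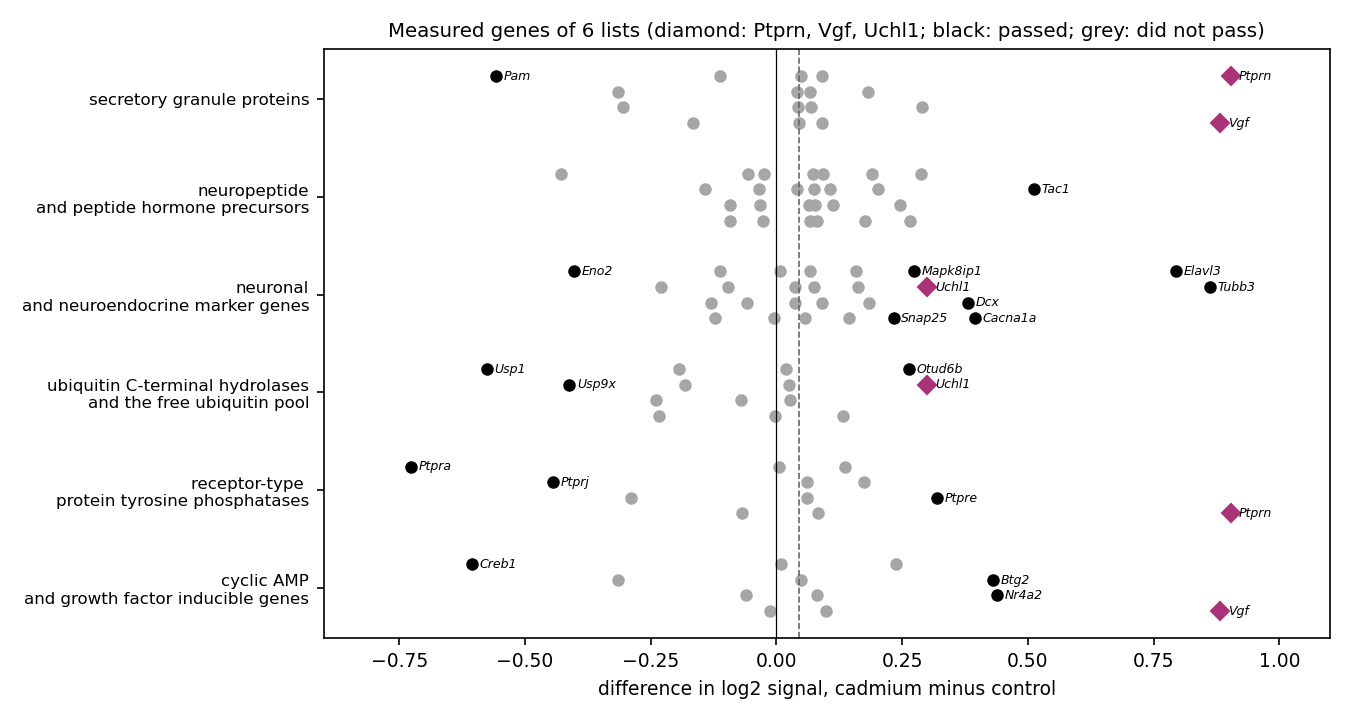
Difference in log2 signal, cadmium minus control, for each measured gene of 6 lists, with 1 point per gene spread vertically for legibility. Diamonds are Ptprn, Vgf and Uchl1, black points passed a limma adjusted p under 0.05, grey points did not, and the dashed line is the median of all genes. The other granule genes lie between -0.56 and 0.29, and Ptprn and Vgf at 0.90 and 0.88.

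Of 13 measured deubiquitinating enzymes other than Uchl1, 1 rose and 2 fell, or 23.1% called against 12.2% of all genes, and the median difference was -0.07. Usp9x, above the bound on all 6 arrays, fell from 7.55 ± 0.05 to 7.14 ± 0.05, a 1.33-fold lower signal (limma adjusted p = 0.0043). Usp1, which acts in DNA damage tolerance, fell from 5.91 ± 0.07 to 5.33 ± 0.11 (limma adjusted p = 0.00366), and Otud6b rose by 0.26 (limma adjusted p = 0.0372). Usp1 and Otud6b had both means below the bound. The call for Otud6b was lost without any 1 of the 6 arrays and with arrays centred. Within the hydrolase family itself Uchl5, a deubiquitinase of the proteasome, was at 6.27 ± 0.15 and 6.27 ± 0.07 (limma adjusted p = 0.993), and Uchl4 at 4.18 ± 0.05 and 4.20 ± 0.08 (limma adjusted p = 0.865). Uchl4 had both means below the bound, and Uchl3 and Bap1 were not analysed here.

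The antisense transcript of Uchl1, Uchl1os, starts on the opposite strand 376 bases downstream of the Uchl1 start. In mouse neurons it is known to raise translation of the Uchl1 message. It was looked at after the probe names had been seen, and the platform annotation names 2 probe sets for it. The brighter read 5.76, 5.82 and 5.78 on control arrays and 5.82, 5.84 and 6.08 on cadmium arrays (limma adjusted p = 0.325). The dimmer had means of 4.74 ± 0.11 and 4.90 ± 0.12 (SD, n = 3). Both were below the bound on every array. Whether the probes of Uchl1 and Uchl1os tell the strands apart is not stated in the labels or the annotation.

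Among receptor-type tyrosine phosphatases, the family to which Ptprn belongs by sequence, 1 of 11 other measured genes rose and 2 fell, or 27.3% called against 12.2% of all genes. Their median difference was 0.06. Ptpra fell from 6.83 ± 0.24 to 6.11 ± 0.13, at least 1.55-fold (limma adjusted p = 0.0121). Ptprj fell from 5.13 ± 0.17 to 4.69 ± 0.06 (limma adjusted p = 0.0193), and Ptpre rose from 4.99 ± 0.04 to 5.31 ± 0.06 (limma adjusted p = 0.0121), both below the bound. Ptpra lost its call without control replicate 1 or 2, Ptpre without control replicate 1 or cadmium replicate 2, and Ptprj without control replicate 1 or 2 or cadmium replicate 2 or 3.

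Genes induced by cyclic AMP or growth factors are a class in which Vgf is counted in neurons. Of 11 measured genes other than Vgf, 2 rose and 1 fell, or 27.3% called against 12.2% of all genes, and the median difference was 0.05. Nr4a2, an orphan nuclear receptor, rose from 5.78 ± 0.09 to 6.22 ± 0.08, at least 1.03-fold (limma adjusted p = 0.00875). Btg2, an antiproliferative gene, rose 1.35-fold from 6.50 ± 0.04 to 6.93 ± 0.13 (limma adjusted p = 0.0128) and lost its call without control replicate 1 or 2 or cadmium replicate 3. Creb1, the transcription factor that binds the cyclic AMP response element, fell 1.52-fold, from 7.44 ± 0.04 to 6.83 ± 0.09 (limma adjusted p = 0.00183). On every cadmium array Creb1 was lower than on any control array, as were 13.0% of all genes. Vgf and Ptprn were higher on every cadmium array, as were 22.9% of all genes, and had been picked for differing. A relation between them and Creb1 was not tested.

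On the chromosomes, Ptprn lies on chromosome 1, and Vgf and Uchl1 lie apart on chromosome 5. The 5 measured protein-coding genes on each side were read in the order of RefSeq assembly GRCm38.p6, a choice made after the data had been seen. All 10 neighbours of Vgf had a positive difference, from 0.10 to 0.59 with a median of 0.20, and their cadmium arrays all lay above their control arrays. The same held for 4 of 10 neighbours of Ptprn and 2 of 10 of Uchl1, and for 22.9% of all genes. All 10 Vgf neighbours remained positive with arrays centred or quantile normalized, and 9 of them had both means below the bound.

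By limma, 3 of 10 neighbours of Vgf rose and 0 fell, where 6.47% of all genes rose and 5.72% fell. Ap1s1, an adaptor subunit of clathrin-coated vesicles, rose 1.37-fold, from 6.86 ± 0.03 to 7.31 ± 0.14 (limma adjusted p = 0.0116). Its call was lost without cadmium replicate 2. Ache, acetylcholinesterase, rose from 5.43 ± 0.05 to 6.01 ± 0.07 (limma adjusted p = 0.00174), and the mucin gene Muc3a by 0.32 (limma adjusted p = 0.0281). Muc3a lost its call without any 1 array except cadmium replicate 1, and it lies beside Muc3, a gene of the same family with which it may share signal.

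Beside Ptprn, 2 of 10 rose and 0 fell. The tubulin gene Tuba4a rose 1.67-fold, from 6.47 ± 0.29 to 7.21 ± 0.26 (limma adjusted p = 0.0359). Dnajb2, a co-chaperone enriched in neurons, rose 1.17-fold (limma adjusted p = 0.0296). Tuba4a lost its call without any 1 array except cadmium replicate 1, and Dnajb2 without any 1 of the 6. Beside Uchl1, 0 of 10 rose and 1 fell, next to 6.47% higher and 5.72% lower among all genes. All 10 had both means below the bound. The gene that fell was Slc30a9, by 0.35 on the log2 scale (limma adjusted p = 0.0247). Its call was lost without any 1 array except control replicate 3.

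**Figure D4:**
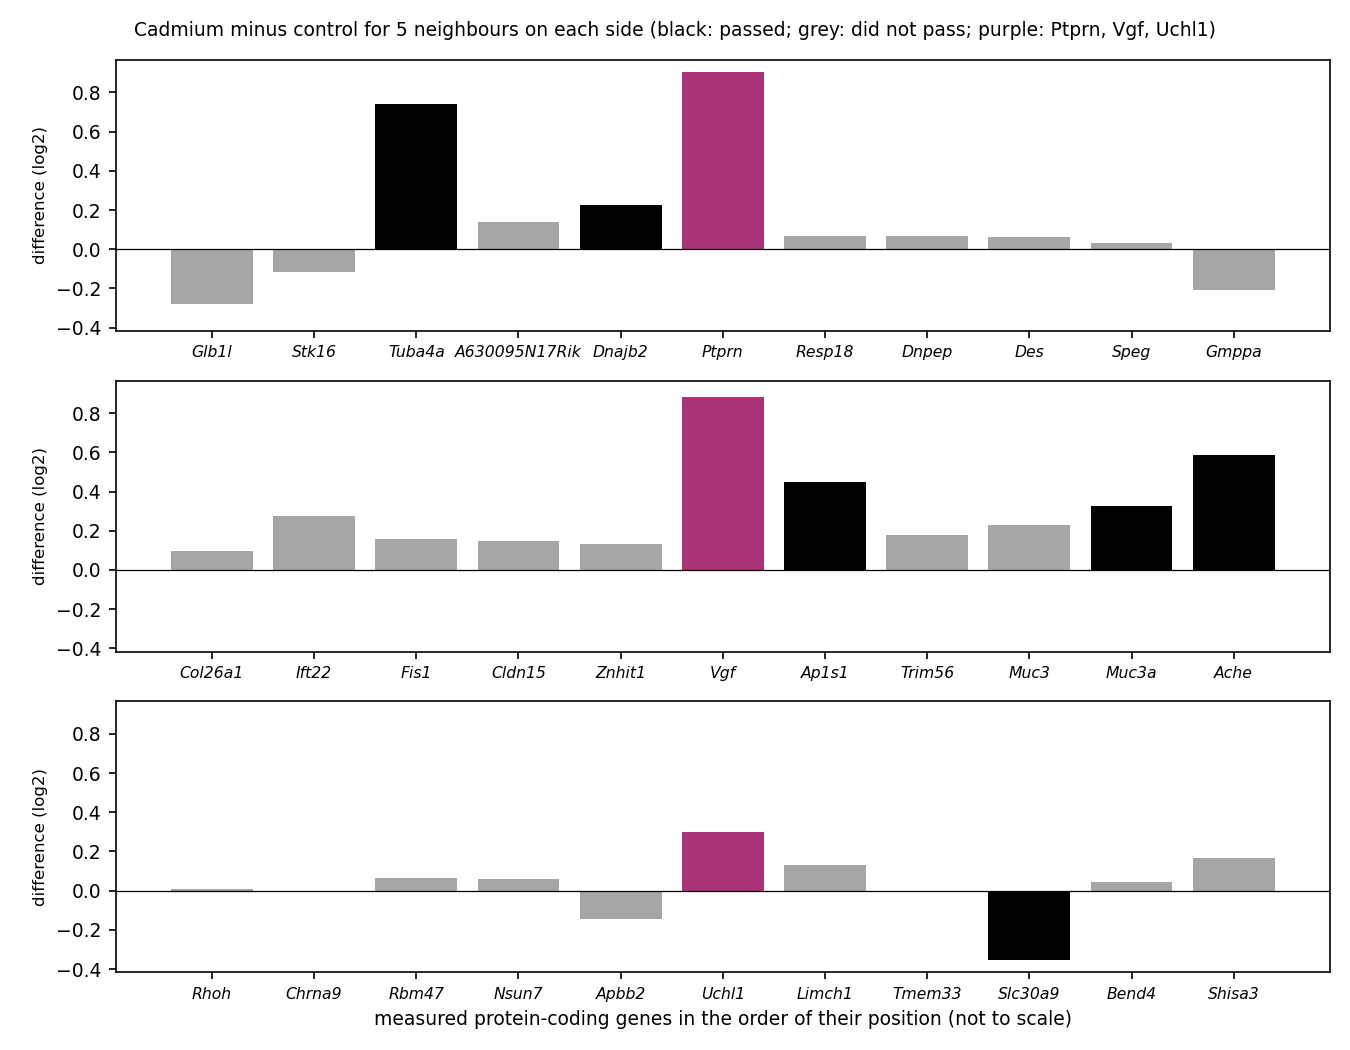
Difference in log2 signal, cadmium minus control, for the 5 measured protein-coding genes on each side of Ptprn, Vgf and Uchl1, in order of position and not to scale. Bars are purple for the members, black where limma adjusted p was under 0.05 and grey otherwise. All bars around Vgf are above 0, which is not so around Ptprn and Uchl1.

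The beta cell label was checked against markers. All 10 measured beta cell markers had both means below the bound, so these arrays do not show the label from those genes. Among them, Ins2 was at 5.27 ± 0.10 and 5.29 ± 0.04 and Pdx1 at 4.25 ± 0.07 and 4.28 ± 0.09 (limma adjusted p = 0.861 and 0.763). Only 2003 of all 18972 genes had both means above the bound, so such counts do not tell the cell type. Of the 10 beta cell markers 1 rose, or 10.0% called against 12.2% of all genes. It was the potassium channel gene Kcnj11, by 0.29 (limma adjusted p = 0.0413). Its call was lost with arrays centred and without any 1 array except cadmium replicate 3. Neuron markers, which could share Ptprn, Vgf and Uchl1, were likewise all below the bound in both group means. Snap25, named above, was the 1 of 8 that rose, or 12.5% called against 12.2% of all genes. Their summed linear signal was 180 to 201 on control and 186 to 205 on cadmium arrays, and its part in the members' differences was not tested.

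For the remaining cell types, 0 of 2 markers of other islet cells, 0 of 4 of endothelium and 0 of 3 of immune cells passed by limma, with 0, 1 and 0 at an unadjusted p under 0.05. Of 3 stromal markers 1 fell, Col3a1, and of 6 exocrine markers 2 rose, Cela2a and Ctrb1, and 1 fell, Cftr. Over all genes 6.47% rose and 5.72% fell. Col3a1, above the bound on all 6 arrays, fell 2.01-fold, from 9.07 ± 0.13 to 8.06 ± 0.17 (n = 3 each, limma adjusted p = 0.00183). All 6 exocrine markers had both means below the bound, so their calls rest on signals not distinct from background. Cela2a lost its call without any 1 of the 6 arrays, and Ctrb1 without 4 of them in turn. The stromal sum, mostly Col3a1, was 544 to 641 on control and 287 to 350 on cadmium arrays. None of the 6 glial markers was measured under a single name.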

How the data were processed

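Biotin-labelled total RNA was read on 6 arrays, 3 per group. The deposited values were used as log2 signals, a scale inferred from their range, and the authors' background correction, normalization, software and base of the logarithm are not stated in the labels or file headers used here. Of 39746 transcript clusters, 19205 had 1 gene after symbols were updated through RefSeq (GRCm38.p6), 940 had several and 19601 had none in the platform annotation. The brightest probe set stood for each of 18972 genes. Limma 3.58.1 in R 4.3.3 was fitted with group as the only term and tested on simulated data, and p-values were adjusted by Benjamini-Hochberg over all genes at a threshold of 0.05.

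The members and gene lists were chosen with earlier results of these data known. Named genes are the members, called genes of 6 lists, 27 relatives, and the 5 nearest profiles per member. Chromosomal neighbours, cell type markers, Uchl1os and Uchl4 fall outside that rule and were named after their values had been seen. Where 1 group mean was below the bound, a fold is a lower limit, the dimmer arrays being set to at least their own bound. A fold is left out where both means were below it. Figures were drawn with matplotlib 3.10.9. The number of arrays limits the precision.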

Additional observations from a re-analysis of the deposited data

How the results depend on the processing

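The differences of the members kept their direction under 12 alternatives each, between 0.79 and 0.98 for Ptprn, 0.83 and 0.98 for Vgf and 0.26 and 0.37 for Uchl1, and moved by less than the spread between replicates. With 1 array left out, all genes gave 609 to 1318 higher and 531 to 1043 lower calls. In the same fits the granule list had 1 to 3 lower, the neuropeptide list 0 to 2 higher, the neuronal markers 3 to 5 higher and 1 to 2 lower, and the deubiquitinases 0 higher. The phosphatases had 0 to 1 higher and 0 to 2 lower, and the cyclic AMP list 1 to 2 higher. Array weights gave 1877 higher calls over all genes, 3 lower in the granule list, 2 higher neuropeptides and 5 lower deubiquitinases. With arrays centred 2 granule genes and 4 deubiquitinases were lower and 0 deubiquitinases higher. With genes under the median level left out 2 granule genes were lower and 0 neuropeptides higher. At an adjusted p under 0.01, all genes gave 449 higher and 419 lower calls, 3 neuronal markers and 1 cyclic AMP gene were higher, and the neuropeptides, deubiquitinases and phosphatases had 0 higher and the phosphatases 0 lower. Without control replicate 3 and cadmium replicate 1 together, an alternative chosen after seeing the data, 3 granule genes and 3 neuronal markers were lower, 2 neuropeptides higher and 0 deubiquitinases higher.

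With the replicate block, the number in the titles as a term of the fit, all genes gave 744 higher and 644 lower calls, 3 neuronal markers were higher, and 0 neuropeptides and 0 deubiquitinases were. Same-numbered arrays deviated together at correlations of -0.108, 0.0566 and -0.108 across genes, and no array correlated best with its own number. These deviations come from 3 arrays per group, so they cannot settle whether the numbers pair the samples. The cause of these changes was not tested. Signals below the negative control bound, which include Vgf and most list genes, limit what differences can be read.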
